A study of Mus musculus with 8 samples.

Results

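Plasma cells of the mouse distal colon were the 1538 cells of 53080 that the authors' cell table placed in the class of B cells and named plasma cells. The same class held 12834 mature B cells and 328 B progenitors among 14940 cells in all, and the mature B cells of the same mice served as the comparison. The cells came from 8 mice of 8 weeks of age, profiled by droplet sequencing of transcript 3′ ends after the muscle layers had been stripped from the colon, and all libraries were processed on 1 day. The 4 KO-labelled mice (mice 2, 3, 6 and 7) carried floxed Spry2 together with VillinCre, whose promoter drives Cre in epithelial cells of the gut. Their WT-labelled littermates, the other 4 mice (1, 4, 5 and 8), were animals with the floxed gene and no Cre, so that both groups carried the floxed allele. The design asks how colon cells differ once the epithelium has lost Sprouty2, which dampens signals from growth factor receptors. For plasma cells the genotype is therefore that of their surroundings.

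Plasma cells are the end stage of the B lineage. In the gut they settle in the lamina propria and secrete IgA, in which 2 antibody units are joined by the J chain, and the polymeric immunoglobulin receptor of the epithelium carries this dimer into the lumen. The change from B cell to plasma cell is driven by Blimp-1 (Prdm1), Irf4 and Xbp1, which shut down the B cell programme and enlarge the endoplasmic reticulum, where antibody chains are folded, glycosylated and assembled.

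The number of plasma cells differed widely between the mice. Mice 1 to 8 gave 114, 46, 132, 182, 326, 290, 367 and 81 plasma cells, with 20314648 UMIs (barcoded transcript molecules) together and between 601169 and 5475226 UMIs per mouse. The median plasma cell held 5756 UMIs in mouse 8 and 16171 in mouse 6, against medians of 1405 to 2134 UMIs for the mature B cells. Of the 1538 cells, 1535 lay in a single cluster of the authors, which also held 190 cells they named mesenchymal doublets and 17 mature B cells. Over the whole series 719 cells carried a barcode that also occurred in another library, and 54 of these were plasma cells. For 22 plasma cells the cell with the same barcode in the other library held at least 10 times as many UMIs. Of these, 21 belonged to mouse 4, held 502 to 815 UMIs and shared their barcodes with cells of mouse 6 that held 23561 to 45606 UMIs, so that the smaller count was 1.71% to 2.13% of the larger. The last was in mouse 8, with 533 UMIs against 57969 in mouse 2. Without these cells mouse 4 had 161 and mouse 8 had 80 plasma cells, the median depth of mouse 4 rose from 9801 to 10609 UMIs, and its plasma cell share of all cells moved from 1.80% to 1.597%.

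The markers that define the cell type were present. Jchain, which encodes the joining chain (chr5:88519809-88527891, mm10), stood at 58514, 63333, 66309, 59126, 68151, 66962, 71432 and 68418 CPM (counts scaled to the same total of UMIs for every sum) in the plasma cells of mice 1 to 8. Igha, the constant region of IgA (chr12:113254830-113260236), ran from 72983 CPM in mouse 6 to 132694 CPM in mouse 1. Sdc1, which encodes the surface marker syndecan-1, was steady at 350 to 444 CPM, and Xbp1, the transcription factor that builds the secretory apparatus, ranged from 948 CPM in mouse 4 to 1896 CPM in mouse 8. No mouse lacked any of the 4. Antibody RNA was also present outside plasma cells: an Igha UMI was found in 99.7% of plasma cells (median depth 12356 UMIs) but also in 33.7% of mature B cells (1893), 38.2% of T cells (2404), 34.4% of fibroblasts (4035.5) and 32.7% of epithelial cells (1743). B progenitors had the higher share of 47.6% (5603.5), and 83.5% of them had a Jchain UMI. Igha and Jchain UMIs in mature B cells are therefore not read as expression.

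Markers of other cell types were also read in plasma cells. At least 2 epithelial markers had a UMI in 558 of the 1538 cells, and 922 cells held fewer than 2 markers of every other lineage examined, among them 43 of 114 in mouse 1 and 63 of 182 in mouse 4. The 8 epithelial markers summed to 115 to 254 CPM for the KO label and 157 to 331 CPM for the WT label, the 8 T cell markers to 8.24 to 59.8 and 9.98 to 94.0 CPM, and the 9 myeloid markers to 4.95 to 103 and 8.08 to 61.9 CPM. The 7 fibroblast markers summed to 4.95 to 28.5 and 3.71 to 29.9 CPM, and the 5 endothelial markers to 19.8 to 30.3 and 17.3 to 32.1 CPM. S100a8, S100a9 and Plvap, which mark neutrophils and vessel endothelium, had 0 UMIs in all plasma cells, which allows up to 0.148 CPM (3 counts of the total, counting error only). The 4 red cell genes summed to at most 1.05 CPM. The 12 B cell surface genes summed to 1256 to 1742 CPM.

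As a share of all cells, plasma cells made up 1.66%, 0.634%, 1.79%, 1.80%, 4.96%, 4.72%, 6.73% and 2.45% of mice 1 to 8. The 3 highest shares were in mice 5, 6 and 7, of which mouse 5 was WT-labelled, and the groups overlapped. Each of mice 1 to 4 (0.634% to 1.80%) lay below each of mice 5 to 8 (2.45% to 6.73%). Both sets held mice of both labels. The same split held among non-epithelial cells (1.46% to 3.68% against 6.07% to 11.3%). It also held among cells of the B class (2.66% to 7.66% against 14.3% to 44.3%). What lay behind the split was not tested. KO-labelled mice averaged 3.47% ± 2.77 and WT-labelled mice 2.72% ± 1.54 (SD, n = 4 each; two-sided exact permutation test, p = 0.743, with 0.0286 the smallest p that 4 against 4 allows). Within mice 1 to 4 the difference (KO minus WT) was -0.518 percentage points and within mice 5 to 8 it was 2.02. The median cell of any type held 9.25% to 40.2% mitochondrial UMIs in mice 1 to 4 and 4.53% to 10.8% in mice 5 to 8, and its part in the shares was not tested. Among non-epithelial cells the means were 5.01% ± 3.17 for the KO label and 6.61% ± 3.94 for the WT label (p = 0.60 by exact permutation). Among cells of the B class they were 11.9% ± 8.71 and 18.1% ± 18.4 (p = 0.629 by exact permutation), where mouse 8 stood at 44.3% with 96 mature B cells beside its 81 plasma cells. After Benjamini-Hochberg adjustment over these 3 shares all p were 0.743. Fewer cells of a type and fewer that survived dissociation cannot be told apart in such shares.

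**Figure D1:**
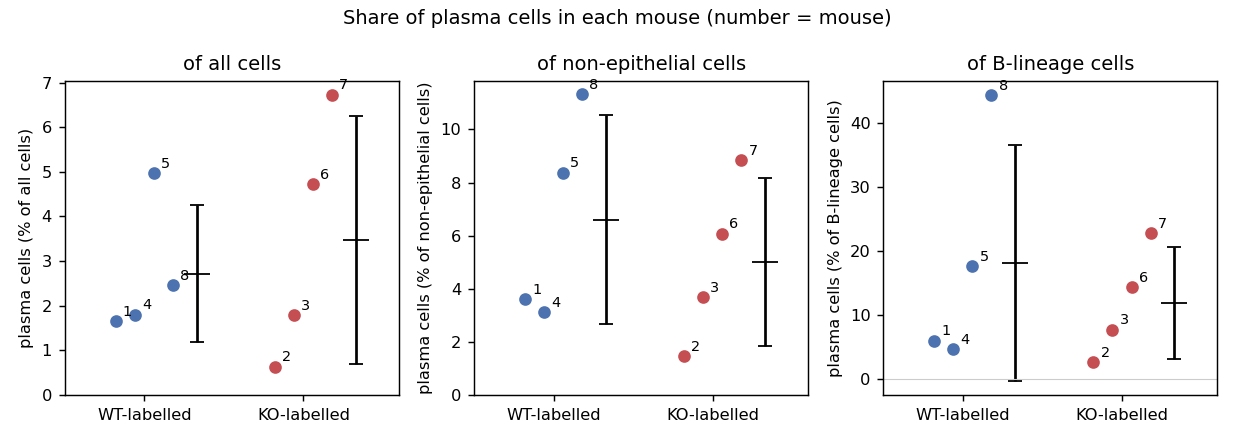
Plasma cells as a percentage of all cells, of non-epithelial cells and of B-lineage cells, 1 point per mouse with its number, beside the mean and SD of each group (n = 4). The groups overlap in each panel, and mouse 8 is highest of the B-lineage panel at 44.3%.

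The antibody heavy chain was almost wholly IgA. Igha made up 99.7%, 99.0%, 96.1%, 99.3%, 96.7%, 96.8%, 98.7% and 99.2% of the heavy constant UMIs in plasma cells of mice 1 to 8. The remainder was mainly the IgG genes Ighg1, Ighg2b, Ighg2c and Ighg3, between 0.183% in mouse 1 and 3.75% in mouse 3, while Ighm, the chain of IgM, stayed between 0.0170% and 0.516%. Mature B cells showed the opposite order, with Ighm at 61.5% to 73.0% and Ighd, the IgD chain, at 19.1% to 24.7% of their heavy constant UMIs. Each plasma cell was called for the isotype that held at least 80% of its heavy constant UMIs. This gave 1487 IgA cells (96.7%, exact 95% binomial interval 95.7% to 97.5%), 25 IgG cells (1.63%, 1.05% to 2.39%) and 3 IgM cells, all 3 in mouse 6; another 17 were mixed and 6 had under 5 heavy constant UMIs. The intervals pool the cells of all 8 mice and cover counting error only, not the spread between mice. IgA cells made up 94.8% of mouse 6 and 98.2% of mouse 1, the lowest and the highest share. IgG cells were found in every mouse, between 1 and 6 of them. The 3 IgM cells were too few for the comparison of IgM with IgA cells that had been laid out.

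Among the IgG genes, Ighg1 stood at 158, 1057, 1509, 212, 2853, 1523, 762 and 256 CPM in mice 1 to 8, lowest in the WT-labelled mice 1, 4 and 8 and highest in the WT-labelled mouse 5. The IgG share of heavy constant UMIs averaged 2.10% ± 1.34 for the KO label and 1.12% ± 1.43 for the WT label (SD over 4 mice; p = 0.286 by exact permutation, 0.686 after adjustment over 9 comparisons). The IgA share averaged 97.7% ± 1.42 and 98.7% ± 1.38 (p = 0.229, adjusted 0.686, exact permutation), and the IgM share 0.205% ± 0.217 and 0.169% ± 0.0626 (p = 0.857, adjusted 0.857, exact permutation). No isotype share was called. A single share at the smallest p of 0.0286 (exact permutation) would not pass the adjustment over 9 either.

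The light chains varied far more between mice than the heavy chains. Igkc, the constant gene of the kappa chain (chr6:70726435-70726966), made up 51.9%, 74.9%, 87.8%, 86.7%, 96.3%, 92.8%, 93.1% and 52.7% of light constant UMIs in plasma cells of mice 1 to 8. Most of the rest was Iglc1 (chr16:19061618-19062071), the constant gene of lambda 1, which held 42.6% in mouse 1 and 44.3% in mouse 8 but 1.26% in mouse 5. In mature B cells of the same mice Iglc1 lay between 3.15% and 5.01%, and Igkc between 79.1% and 86.6%. The lambda 1 share thus spread far less between mice in mature B cells than in plasma cells. Where lambda constant genes are alike in sequence, reads may have been split between them.

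Called cell by cell with the same 80% rule, 1336 plasma cells were kappa, 157 lambda and 45 mixed. Lambda cells made up 34.2% (exact 95% binomial interval 25.6% to 43.7%) of mouse 1 and 43.2% of mouse 8, against 2.45% of mouse 5 and 3.54% of mouse 7. The KO-labelled mean was 10.9% ± 9.07 and the WT-labelled mean 22.7% ± 19.2 (SD over 4 mice; p = 0.286 by exact permutation), with the 2 highest and the lowest mouse all WT-labelled. The Igkc share averaged 87.1% ± 8.53 for the KO label and 71.9% ± 23.0 for the WT label (p = 0.314 by exact permutation, 0.686 after adjustment). Kappa and lambda cells had like depths, with medians of 12346.5 and 12151 UMIs, and like immunoglobulin content, with medians of 55.1% and 54.1% of their UMIs.

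**Figure D2:**
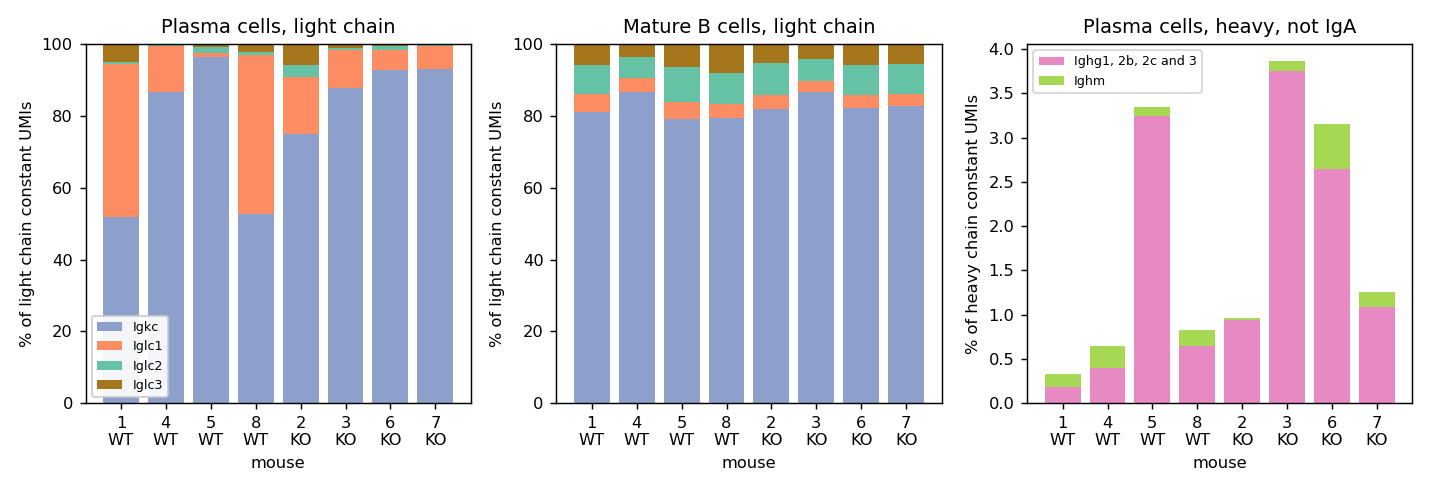
Bars give the percentage of light chain constant UMIs from Igkc and Iglc1 to Iglc3 in plasma cells (left) and mature B cells (middle), and the percentage of heavy chain constant UMIs from IgG and IgM genes in plasma cells (right), for each mouse. Iglc1 fills 42.6% and 44.3% of the plasma cell bars of mice 1 and 8 and at most 5.01% of any mature B cell bar.

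Immunoglobulin genes as a whole took 56.5%, 57.4%, 55.6%, 55.2%, 56.7%, 54.7%, 51.7% and 50.01% of plasma cell UMIs in mice 1 to 8, against 0.971% to 1.37% in mature B cells. The group means of 54.9% ± 2.38 (KO) and 54.6% ± 3.13 (WT) could not be told apart (SD over 4 mice; p = 0.857 by exact permutation). Because antibody transcripts fill so much of the total, every other gene is diluted in plasma cells. Levels relative to mature B cells are therefore given on the scale of all UMIs and on that of UMIs from genes other than immunoglobulins.

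Variable gene UMIs were few. Reads of a 3′ library seldom reach the variable region, and only 315 to 2564 heavy and 1200 to 9055 light variable UMIs were counted per mouse; near-identical variable genes can share reads. Iglv1, the main lambda variable gene (chr16:19085017-19085500), led the light variable UMIs in all 8 mice, with 62.8%, 41.2%, 28.4%, 34.0%, 31.6%, 32.1%, 25.2% and 55.0%. It held 93.4% of light variable UMIs in lambda cells and also 25.8% in cells called kappa, so its share is not a count of lambda cells. In mouse 5, 71 cells were called for Iglv1 by their variable UMIs while 8 were lambda by their constant UMIs, so a variable call is not always the light chain that the cell made. Behind it came Igkv5-43 with a mean of 5.28% over the mice, Igkv12-44 with 4.57%, Igkv1-117 with 4.27% and Igkv12-46 with 4.24%. Each of these was over 10% in a single mouse: Igkv5-43 in mouse 5 (11.2%), Igkv12-44 in mouse 8 (14.1%), and Igkv1-117 and Igkv12-46 in mouse 3 (12.3% and 11.2%). Igkv17-127 reached 11.9% in mouse 7 and was listed at 0 UMIs in mice 1, 2, 3 and 8.

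The leading heavy variable gene changed from mouse to mouse. Ighv7-3 led in mice 3 (24.5%) and 7 (12.2%), Ighv10-3 (chr12:114523441-114523905) in mice 4 (14.8%) and 8 (36.6%), Ighv1-82 in mouse 1 (15.1%), Ighv5-16 in mouse 2 (12.4%), Ighv4-1 in mouse 5 (16.8%) and Ighv6-3 in mouse 6 (11.3%). Ighv10-3 had 193 UMIs in mouse 8 but 0 in mouse 5, although mouse 5 had 2564 heavy variable UMIs. The share of the leading heavy gene averaged 15.1% ± 6.31 for the KO label and 20.8% ± 10.6 for the WT label (SD over 4 mice; p = 0.457 by exact permutation, 0.686 after adjustment), and that of the leading light gene 31.7% ± 6.94 and 45.8% ± 15.4 (p = 0.200, adjusted p = 0.686, exact permutation).

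Pairs of heavy and light variable genes were repeated within mice. A gene was called in a cell where it had at least 50% of at least 3 variable UMIs of that chain, and 711 plasma cells had both calls. They formed 337 distinct pairs, of which 284 were seen in 1 mouse and 19 in 3 or more. In all, 399 of the 711 cells had a pair that another cell of the same mouse also had. As a share of the cells with both calls in a mouse, the most frequent pair was Ighv10-3 with Iglv1, in 18 of 44 cells of mouse 8 (40.9%, exact 95% binomial interval 26.3% to 56.8%) and in 9 of 73 cells of mouse 4 (12.3%, 5.80% to 22.1%), both WT-labelled. Ighv6-3 with Igkv3-7 was the most frequent pair in mouse 5 (18 of 177 cells) and in mouse 6 (19 of 147), which carry different labels. Ighv1-53 with Iglv1 led in mouse 1 (15 of 70), Ighv1-26 with Igkv8-21 in mouse 3 (9 of 63) and Ighv14-3 with Igkv15-103 in mouse 7 (9 of 113). Repeated pairs of gene names are not clones, since the junctions between segments were not read, and pairs with Iglv1 carry the limit of that call.

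Beyond the antibody genes, plasma cells differed from mature B cells in the same mouse across much of the transcriptome. The cells were named by the authors from these transcripts, so the differences are a description and carry no test. Differences are of log2(CPM + 10) within a mouse, which understates the change of low genes. Of 7695 genes with a mean of at least 10 CPM in either cell type, 176 (2.29%) were at least 2-fold higher and 1334 (17.3%) at least 2-fold lower in plasma cells of all 8 mice, with a median of -0.76. With immunoglobulin UMIs left out of the totals, 575 (6.91%) of 8320 genes were higher and 369 (4.44%) lower, with a median of 0.00. The share of higher genes among those counted thus depended on the scale, and the directions given hold on both scales unless stated.

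Apart from Jchain, the gene with the largest difference was Slpi, an inhibitor of secreted leukocyte proteases, at 951 ± 301 CPM in plasma and 1.55 ± 0.969 CPM in mature B cells (SD, n = 8), a median log2 difference of 6.26. Next came Ly6c2, a surface antigen of the Ly6 family (607 ± 161 CPM against 1.29 ± 0.807, log2 5.85), and the paired membrane proteins Tmem176b (809 ± 236 CPM, 5.55) and Tmem176a (774 ± 199 CPM, 5.55). Glipr1 was at 505 ± 102 CPM (log2 4.30) and Fam46c, a poly(A) polymerase known from plasma cells and myeloma, at 355 ± 41.8 CPM (4.23). The 10 highest genes were picked among those at least 2-fold higher in all 8 mice, so their separation within each mouse follows from that rule.

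Of 9 transcription factors of plasma cells, 4 were at least 2-fold higher in all 8 mice and 2 lower (5 and 0 without immunoglobulin). Xbp1 was 1424 ± 314 CPM in plasma and 55.1 ± 10.1 CPM in mature B cells (SD, n = 8; log2 4.44, or 5.61 without immunoglobulin). Prdm1 stood at 87.8, 70.9, 74.2, 49.0, 58.3, 35.7, 35.2 and 111 CPM in mice 1 to 8 against 0 to 3.53 CPM in mature B cells (log2 2.55), with the KO-labelled mice 6 and 7 lowest and mouse 8 highest. Creb3l2, a membrane-bound factor of the secretory pathway, was at 82.5 ± 11.3 against 3.64 ± 1.17 CPM (log2 2.83). Irf4 went with the scale: at 94.4 ± 26.1 CPM in plasma and 155 ± 34.96 in mature B cells its log2 difference was -0.66, and 0.38 without immunoglobulin. Ell2, an elongation factor that favours the secretory form of the heavy chain mRNA, was at 144 ± 29.4 against 52.3 ± 17.5 CPM (log2 1.41).

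The B cell programme was low. All 10 B cell transcription factors on the list were at least 2-fold lower in all 8 mice (9 of 10 without immunoglobulin), among them Ebf1 (23.0 ± 8.27 CPM against 1941 ± 252, log2 -6.02), Pax5 (3.79 ± 2.29 against 346 ± 41.6, -4.75) and Bach2 (7.54 ± 3.29 against 166 ± 15.9, -3.41). Of 12 surface and receptor genes 11 were lower (10 without immunoglobulin), with Ms4a1, which encodes CD20, at 0 to 29.1 CPM against 622 to 894 CPM. Cd79a, the signalling chain of the B cell receptor, was at 421 ± 56.6 CPM against 2670 ± 310 CPM (log2 -2.66). All 8 genes of MHC class II presentation were lower (7 without immunoglobulin), with the transactivator Ciita at 3.96 ± 3.02 against 310 ± 73.9 CPM. Cd74, the invariant chain, still stood at 3594 ± 551 CPM in plasma cells, and its log2 difference of -2.07 became -0.91 without immunoglobulin.

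**Figure D3:**
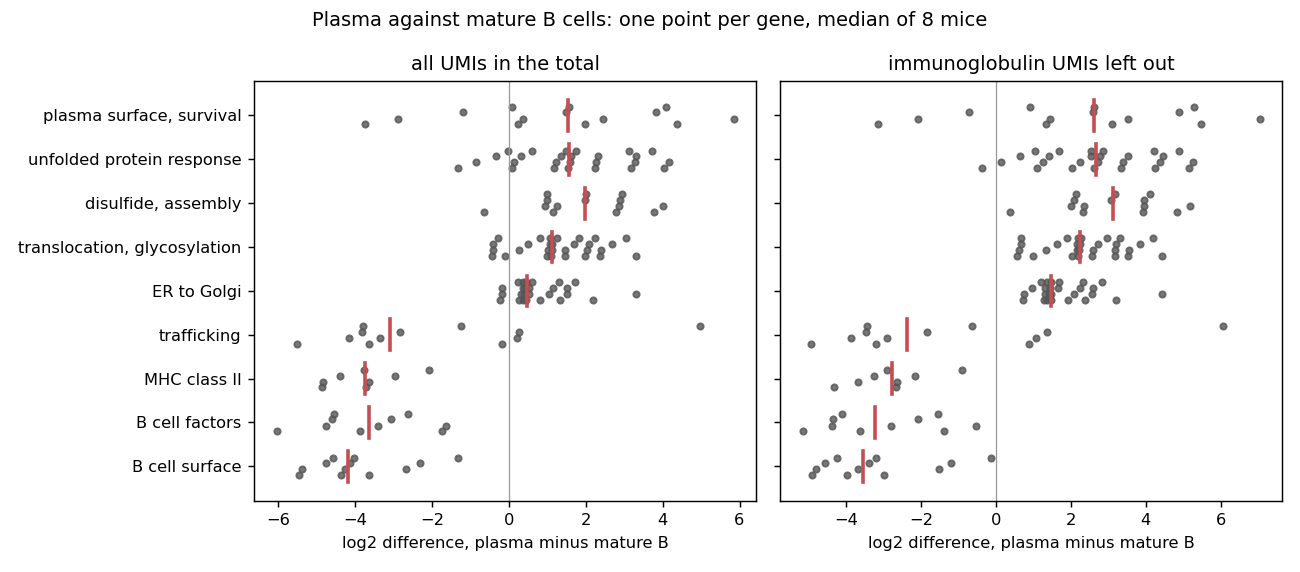
Each point is 1 gene of a list, placed at the median over 8 mice of its log2(CPM + 10) difference between plasma and mature B cells, with all UMIs in the totals (left) and with immunoglobulin UMIs left out (right); red bars are list medians, over genes measured on the left scale. Lists of the secretory route lie right of 0 and B cell lists left of 0 on both scales.

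Folding and quality control in the endoplasmic reticulum were higher in many but not all members. Of 26 chaperones and sensors of the unfolded protein response, 14 were at least 2-fold higher in all 8 mice and 0 were lower, with a median log2 difference of 1.57; without immunoglobulin 20 were higher, with a median of 2.67. Derl3, a channel component for the disposal of misfolded proteins, was at 249, 173, 235, 210, 190, 182, 169 and 258 CPM in mice 1 to 8 and at 0 to 2.94 CPM in mature B cells (log2 4.16). Every plasma cell value lay above every mature B cell value. Edem1, which marks misfolded glycoproteins for disposal, was at 796 ± 77.9 against 38.5 ± 5.74 CPM (log2 4.03), and Hsp90b1, the chaperone GRP94, at 4015 ± 624.97 against 427 ± 137 CPM (log2 3.29). Hspa5, which encodes BiP, differed less, at 1346 ± 314 against 440 ± 98.7 CPM (log2 1.6). The sensors differed: Ern1 (IRE1α) had a log2 difference of 1.16 and Atf6 of 1.45, while Eif2ak3 (PERK) was at -0.84, or 0.12 without immunoglobulin. Ddit3 (CHOP), a target of the PERK arm, was at 34.7 ± 9.51 against 44.1 ± 7.47 CPM, with a log2 difference of -0.33 that became 0.64 without immunoglobulin.

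The promoters of this group carried a known motif more often than those of the other secretory lists. The endoplasmic reticulum stress element, bound by ATF6 and XBP1, was searched on both strands as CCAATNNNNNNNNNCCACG and its second form as ATTGGNCCACG, in RefSeq windows from 250 bases before to 50 after the start of each gene (GRCm38.p6, the mm10 assembly). Either form was found in 10 of 23 genes of the unfolded protein response with a window (43.5%), in 1 of 12 disulfide genes (Pdia6) and in 0 of 23 translocation and 0 of 22 transport genes. Among all 27025 genes with a window 49 had one (0.181%). Of the 18 such genes that were measured here, 10 were at least 2-fold higher in plasma cells of all mice (55.6%), against 2.06% of the 6064 measured genes with a window. Most of these 10 are members of the secretory lists, among them Hspa5, Hsp90b1, Derl3 and Pdia6. The share of 55.6% therefore counts the same genes again and is not separate support. The list was drawn up as genes of the unfolded protein response, in which ATF6 and XBP1 act. Its 43.5% is therefore a description too and not separate support. A match is a description of the letters and not of binding. To show the element in place, the 4 genes of the list with a motif and the largest log2 differences are given from 250 to 76 bases before the RefSeq start, with the motif in capitals (Hsp90b1 holds 2).
Derl3 (chr10:75893148-75893322, plus strand): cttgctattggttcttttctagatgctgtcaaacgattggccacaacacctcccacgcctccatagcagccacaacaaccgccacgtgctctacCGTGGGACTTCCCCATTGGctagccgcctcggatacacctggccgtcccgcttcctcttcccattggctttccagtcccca
Creld2 (chr15:88819396-88819570, plus strand): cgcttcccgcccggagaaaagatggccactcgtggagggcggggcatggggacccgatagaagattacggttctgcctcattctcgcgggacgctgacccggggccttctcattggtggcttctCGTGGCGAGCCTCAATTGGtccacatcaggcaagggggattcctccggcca
Hsp90b1 (chr10:86705520-86705694, minus strand): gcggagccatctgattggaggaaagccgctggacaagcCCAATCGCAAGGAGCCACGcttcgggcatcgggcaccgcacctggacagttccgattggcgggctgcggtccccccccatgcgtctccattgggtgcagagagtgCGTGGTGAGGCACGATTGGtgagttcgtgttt
Dnajc3 (chr14:118937682-118937856, plus strand): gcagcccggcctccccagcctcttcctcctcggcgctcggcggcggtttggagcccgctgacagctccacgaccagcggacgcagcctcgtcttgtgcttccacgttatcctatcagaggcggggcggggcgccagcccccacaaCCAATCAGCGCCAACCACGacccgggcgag
In Derl3 the motif lies 156 to 138 bases before the start and on the opposite strand, as it does in Creld2 (126 to 108). In Hsp90b1 the farther match lies 212 to 194 bases before the start, and in Dnajc3 the match lies 105 to 87 bases before it, both on the gene's own strand. Creld2, a disulfide isomerase partner, was at 308 ± 85.7 CPM in plasma and 20.6 ± 3.72 in mature B cells (log2 3.31). Dnajc3, a co-chaperone of BiP, was at 494 ± 39.8 against 46.2 ± 8.27 CPM (log2 3.19).

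Disulfide formation and antibody assembly had the largest share of higher genes among the secretory lists. Of 14 measured genes 10 were at least 2-fold higher in all mice (13 without immunoglobulin), with a median log2 difference of 2.00. Txndc5, a disulfide isomerase, was at 1132 ± 182 against 58.2 ± 15.5 CPM (log2 4.01), Prdx4, a peroxidase of the endoplasmic reticulum, at 320 ± 37.4 against 14.04 ± 3.78 CPM (3.78), and Mzb1, a chaperone of antibody assembly in B and plasma cells, at 2565 ± 308 against 337 ± 64.3 CPM (2.86). Fkbp11, a prolyl isomerase, was at 177, 77.5, 83.1, 103, 101, 111, 87.4 and 161 CPM in mice 1 to 8. Mice 1 and 8 were highest for it.

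Translocation, signal peptide cleavage and glycosylation had 14 of 29 genes higher (22 without immunoglobulin) and a median of 1.13. The signal peptidase subunit Sec11c was at 1478 ± 198 against 170 ± 25.8 CPM, with a log2 difference that lay between 3.00 and 3.11 in all 8 mice. Ssr4, a subunit of the translocon-associated complex, was at 1361 ± 161 against 194 ± 26.0 CPM (log2 2.70). Transport from the endoplasmic reticulum to the Golgi had the smallest gain of the secretory lists, with 8 of 26 genes higher (19 without immunoglobulin) and a median of 0.48. Its member Lman1, a cargo receptor for glycoproteins, was at 353 ± 28.8 against 25.8 ± 5.15 CPM (log2 3.31). No gene of the disulfide, translocation or transport lists was 2-fold lower in all mice on either scale. By contrast 62 of 85 measured ribosomal protein genes were lower on the scale of all UMIs, and 2 without immunoglobulin.

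Receptors for survival factors differed in kind between the cell types. Tnfrsf17, which encodes BCMA, a receptor for the survival cytokines APRIL and BAFF, stood at 184, 176, 205, 189, 225, 226, 228 and 180 CPM in mice 1 to 8 and at 0 to 0.563 CPM in mature B cells (log2 4.37). Tnfrsf13c, the BAFF receptor of B cells, went the other way (23.9 ± 7.55 against 232 ± 55.5 CPM, log2 -2.89), and Tnfrsf13b, which encodes TACI, was at 168 ± 19.99 against 120 ± 37.8 CPM (0.36). Cd28, a costimulatory receptor, was at 143 ± 34.4 against 0.999 ± 0.862 CPM (3.83), Slamf7 at 127 ± 21.1 against 24.3 ± 1.59 CPM (1.98) and Cd44, a matrix receptor, at 206 ± 21.5 against 31.7 ± 4.54 CPM (2.45). Of the 14 surface and survival receptor genes 7 were at least 2-fold higher and 2 lower in all mice. Of 8 measured apoptosis regulators 0 passed the 2-fold rule in either direction; without immunoglobulin 1 of 9 measured was at least 2-fold higher in all mice. Mcl1, which plasma cells need to survive, was at 380 ± 46.5 against 409 ± 60.1 CPM, and its log2 difference of -0.08 became 1.01 without immunoglobulin.

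Of 12 measured trafficking genes 1 was higher and 7 lower in all mice. The higher was Ccr10, the receptor for the mucosal chemokine CCL28, at 236, 257, 311, 316, 327, 323, 297 and 293 CPM in mice 1 to 8 against 0 to 0.928 CPM in mature B cells (log2 4.97). Ccr9, the receptor for the small intestinal chemokine CCL25, was at 6.67 ± 3.30 CPM. Of the integrin chains of gut homing, Itga4 turned direction with the scale (log2 -0.17, or 0.89 without immunoglobulin), and Itgb7 was at 0.26, or 1.36 without immunoglobulin. Among the lower were the lymphoid organ receptors Ccr7 (6.97 ± 2.58 against 707 ± 120 CPM) and Cxcr5 (2.598 ± 1.91 against 213 ± 32.7), the exit receptor S1pr1 (4.29 ± 3.16 against 190 ± 36.8), and Cxcr4, at 23.4 ± 7.13 against 477 ± 154 CPM.

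Some partners of these receptors were found in other cells. Ccl28 averaged 49.9 ± 19.3 CPM in epithelium (SD, n = 8) and Pigr, the antibody transporter, 2450 ± 561 CPM there. Tnfsf13b, which encodes BAFF, was highest in fibroblasts (116 ± 87.4 CPM) and at 11.1 ± 7.31 CPM in macrophages (n = 7), and Cxcl12 was at 670 ± 543 CPM in fibroblasts and 2329 ± 1231 CPM in endothelium (n = 6, the mice with enough such cells). Fibroblast Tnfsf13b was 28.3 to 53.9 CPM in mice 1 to 4 and 144 to 279 CPM in mice 5 to 8. Fibroblast Cxcl12 was 290 to 312 and 609 to 1863 CPM in the same sets. Endothelial Cxcl12 went the other way, with mice 3 and 4 (4573 and 2536 CPM) above mice 5 to 8 (1061 to 2372 CPM). These splits were not tested. Tnfsf13, which encodes APRIL, had 0 UMIs in plasma cells, mature B cells and macrophages. It was hardly counted in any class, with 19 UMIs in epithelium and 2 in fibroblasts, so its source cannot be read here.

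A minority of plasma cells carried transcripts of cell division. At least 2 UMIs of Mki67, Top2a, Cdk1, Ccnb1, Ccnb2, Ccna2 and Birc5 together were found in 16.7%, 13.04%, 21.2%, 19.2%, 18.4%, 23.1%, 20.4% and 19.8% of plasma cells in mice 1 to 8, or 306 of 1538. The KO-labelled mean was 19.4% ± 4.41 and the WT-labelled mean 18.5% ± 1.35 (SD over 4 mice; p = 0.743 by exact permutation, 0.857 after adjustment). Cells with division UMIs were deeper (median 15606 UMIs against 11691.5). Immunoglobulin made up 45.5% of their UMIs against 58.3% in the other plasma cells, and it was lower in 8 of 8 mice, from 36.8% against 55.0% in mouse 8 to 51.5% against 58.9% in mouse 2.

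This difference was also measured after the UMIs of genes other than immunoglobulins had been thinned to 2000 in every cell, a step added after seeing the data that gives all cells the same chance of a division UMI. Of 1323 cells deep enough, 152 (11.5%) then had division UMIs. Their immunoglobulin share was 40.7% against 57.2%, again lower in 8 of 8 mice, with 2 such cells in mouse 2. The genes that follow were compared with the call made on all UMIs, before thinning, so the difference in depth between the classes remains. They were taken on the scale without immunoglobulin, over the 7 mice with at least 10 dividing cells. Of 26 genes of the unfolded protein response 11 were lower in dividing cells of all 7 mice and 0 were higher. Among all 7955 genes 5.72% were lower and 8.43% higher. Derl3 was at 369 ± 72.1 CPM in dividing and 514 ± 78.9 CPM in other plasma cells (SD, n = 7), Sdc1 at 631 ± 131 against 933 ± 60.8 CPM, and Cd74 at 6044 ± 963 against 8895 ± 1187 CPM. Prdm1 (128 ± 45.9 against 147 ± 64.5 CPM) and Irf4 (199 ± 55.7 against 192 ± 48.3 CPM) kept no common direction. Of 12 immediate early and stress genes 7 were lower in all 7 mice, with Fos at 1330 ± 608 against 2415 ± 678 CPM. Since the classes were made from the same cells' transcripts, no test is given.

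**Figure D4:**
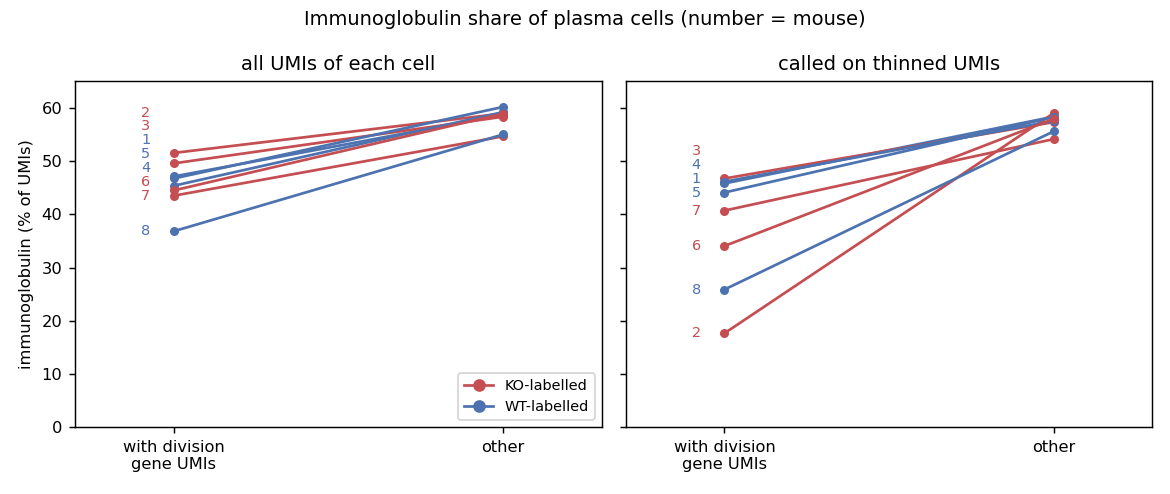
Immunoglobulin as a percentage of the UMIs of plasma cells with and without division gene UMIs, 1 line per mouse, with the call made on all UMIs (left) and after thinning (right). All 8 lines rise to the right in both panels; in the right panel mouse 2 rests on 2 cells.

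Genotype was then compared over the mice. Spry2 itself had 17 UMIs in all plasma cells, 0 to 1.83 CPM per mouse, and was too low to test. In epithelium, where the gene is targeted, it stood at 11.2, 10.4, 13.3, 17.6, 27.7, 15.7, 49.3 and 37.6 CPM in mice 1 to 8, and the KO-labelled values (10.4 to 49.3) overlapped the WT-labelled ones; whether the 3′ reads fall in the deleted part is not given in the sources used here, so that the labels are not checked by it. In plasma cells 0 of 6879 genes (0%) passed an adjusted p of 0.05 with edgeR's quasi-likelihood test on counts summed per mouse, 193 (2.81%) were under 0.05 before adjustment, and the DESeq2 alternative made 0 calls, with 97 genes under 0.05 before adjustment. For 131 genes (1.9%) the 4 KO-labelled and the 4 WT-labelled mice did not overlap. With 4 against 4 mice a fraction of 0.0286 would be expected not to overlap by chance alone. The labels do not say that the mice came from separate cages, and p-values measure the spread between these mice.

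The 5 genes with the smallest p in each direction are described as such. They were picked by that p. Where their groups did not overlap, this follows in part from the choice and is not separate support. Igkv10-94, a kappa variable gene (chr6:68704508-68704978), was at 39.6, 194, 19.9 and 36.8 CPM in KO-labelled mice 2, 3, 6 and 7 and at 4.95, 5.93, 4.75 and 0 CPM with the WT label 1, 4, 5 and 8. The groups did not overlap, and the fitted log2 fold change was 3.90 ± 0.75 (SE; edgeR unadjusted p = 0.000151, adjusted p = 1.00). Without mouse 3 it was 2.61 with an adjusted p of 0.0374 (edgeR). Serpina3g, a serine protease inhibitor, averaged 37.4 ± 10.3 CPM for the KO label and 19.0 ± 5.92 CPM for the WT label (SD, n = 4 each), and Dusp16 (a MAP kinase phosphatase), Eif4enif1 and Scarb2 had smaller differences, with log2 fold changes of 0.72, 0.44 and 0.59 and an adjusted p of 1.00 each (edgeR).

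In the other direction Acp5, the tartrate-resistant acid phosphatase, was at 13.2, 16.0, 15.3 and 12.8 CPM with the KO label and 25.3, 26.9, 21.4 and 34.9 CPM with the WT label. The groups did not overlap, with a log2 fold change of -0.89 ± 0.19 (SE; edgeR adjusted p = 1.00). Clec2g, a C-type lectin-like gene, averaged 8.67 ± 1.41 against 16.3 ± 5.30 CPM, Iglv2 4.05 ± 2.89 against 13.9 ± 13.4 CPM, and Rps27rt 8.39 ± 2.05 against 17.4 ± 7.85 CPM. Pigr averaged 13.6 ± 4.79 against 29.0 ± 12.97 CPM in plasma cells; it is a gene of the epithelium, and all 6 tested epithelial markers were also fitted lower in KO-labelled mice, with a median log2 fold change of -0.97. Their part in the result was not tested.

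**Figure D5:**
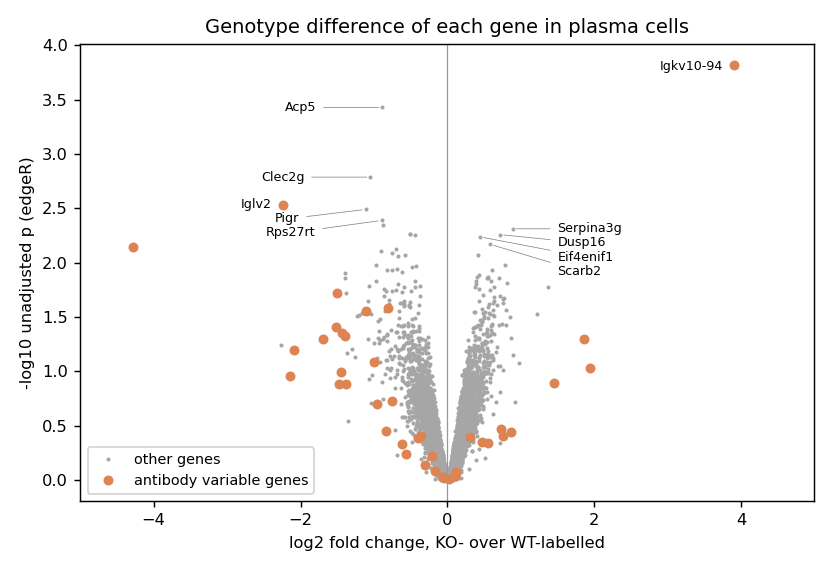
Log2 fold change of KO- over WT-labelled mice in plasma cells against -log10 of the unadjusted edgeR p for 6879 genes, with antibody variable genes as large orange points and the 10 genes with the smallest p in either direction named. No gene passed the adjusted threshold, and Igkv10-94 lies farthest up at a log2 fold change of 3.90.

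By list, no member passed the test. Over all 6879 genes 3384 were fitted higher and 3495 lower in KO-labelled mice. Counts of direction within a list are a description and were not tested. Of the 26 genes of the unfolded protein response 11 were fitted higher and 15 lower in KO-labelled mice (median log2 fold change -0.02, against 0.00 over all 6879 genes), of 14 disulfide genes 4 and 10 (-0.06), of 29 translocation genes 11 and 18 (-0.03), and of 26 transport genes 14 and 12 (0.01). Fkbp11 had an unadjusted p of 0.00854 (edgeR adjusted p = 1.00), at 89.8 ± 14.8 CPM for the KO label and 136 ± 39.5 CPM for the WT label. The 8 class II genes had 7 fitted higher (median 0.19), with H2-Aa at 189 ± 96.3 against 134 ± 56.5 CPM. Of the 16 division genes 15 were fitted lower (median -0.24), with Mki67 at 116 ± 48.7 against 147 ± 65.3 CPM and an edgeR adjusted p of 1.00. The share of plasma cells with division UMIs went the other way before thinning (KO 19.4%, WT 18.5%) and the same way after it. Of the 5 tested interferon response genes Ifi27l2a had an unadjusted p of 0.00543 (log2 fold change -0.51, edgeR adjusted p = 1.00). Of the 4 defining markers 2 were fitted higher and 2 lower; Xbp1 was at 1335 ± 210 CPM for the KO label and 1513 ± 406 CPM for the WT label.

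Antibody variable genes spread most between mice. Among tested genes of at least 50 CPM, the median coefficient of variation over the 8 mice was 104% for 8 variable genes and 14.4% for 1324 genes other than immunoglobulins. Of the 50 tested immunoglobulin genes 9 had an unadjusted p under 0.05 (18.0%, against 2.81% of all genes), and 0 passed the adjusted test.

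Whether the genotype difference in plasma cells differed from that in mature B cells was tested as an interaction in the same model. Of 10785 genes 1 passed (0.00927%), the kappa variable gene Igkv8-24 (chr6:70216858-70217421), with a log2 difference of 8.77 ± 1.52 (SE; edgeR adjusted p = 0.0456). It was at 144.5 CPM in plasma cells of mouse 3, at 4.62 and 2.09 CPM in mice 6 and 7, at 0.913 CPM in mouse 5 and at 0 in mice 1, 2, 4 and 8. The value thus rested on mouse 3: without that mouse the adjusted p was 1.00 (log2 difference 4.68). It was 0.155 without mouse 5 and 0.172 without mouse 8 (edgeR). At an unadjusted p under 0.05 there were 365 genes (3.38%). DESeq2 called 0 genes. A fitted difference against groups at or near 0 depends on the prior count and is no bound. In mature B cells alone 0 of 9587 genes passed edgeR's test, with 140 under 0.05 unadjusted.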

How the data were processed

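Single cells of the distal colonic mucosa of 8 mice were read with 10x Chromium 3′ libraries, per the labels' protocols, with alignment by Cell Ranger 3.0.2 to mm10 according to the submitters' processing notes. No source used here gives the software for filtering, clustering or naming cells. Raw UMI counts were deposited for 31053 genes in 53080 cells with at least 500 UMIs. The size factor that the authors deposited for each cell is a ratio of its total to the geometric mean of all totals, and the deposited 2-dimensional map positions, a score, were not used. All 53080 size factors matched the matrix (tolerance 1e-06) after sorting the cells by mouse, then barcode; 16 did in file order. The genotype column matched the labels for all cells. Genes were followed by Ensembl identifier, since 36 rows repeated a symbol. Doublets named by the authors were not in the cells described, and no further doublet caller was run.

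Plasma cells were taken as the cells named so by the authors. The members and gene lists were chosen with earlier results of these data known. Counts were summed per mouse and cell type and tested with edgeR 4.0.16 (TMM, filterByExpr, quasi-likelihood F test, Benjamini-Hochberg, threshold 0.05) in R 4.3.3; DESeq2 1.42.0 was an alternative. Shares were compared by two-sided exact permutation over 70 assignments, adjusted over the 9 values within plasma cells and the 3 shares of cells separately. CPM are counts divided by the UMI total of the sum and scaled to 1e6, means are over mice with SD, and plasma and mature B cells were compared as log2(CPM + 10). Named genes were, for the genotype and interaction tests, all called genes where at most 20 passed and otherwise the 5 with the smallest p in each direction; against mature B cells, the 10 with the largest median difference in each direction without immunoglobulin segments; the 5 variable genes with the largest mean share of each chain with each mouse's leading gene; and genes of the lists. Intervals are exact binomial at 95% and cover counting error only, as UMIs of 1 cell share its capture. Gene positions are from the GENCODE annotation of mm10 and promoter sequences from RefSeq. Analyses used Python 3.11.15, numpy 2.4.6, pandas 2.3.3, scipy 1.17.1 and matplotlib 3.10.9. The edgeR script was tested on simulated data before use. The values of some listed genes are not reported here.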

Additional observations from a re-analysis of the deposited data

Results flagged for a closer look

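Single mice stood apart from the other 3 of their group in 5 of 52 groups of 4 values examined, where chance would be expected to give about 1 in 20. The groups are not independent, since some values are parts of the same whole and some genes were picked by their p. No excess over chance is read from the count. The IgG share of heavy constant UMIs in plasma cells of mouse 5 (3.24%) lay far above the other WT-labelled mice, with its IgA share (96.7%) correspondingly low. The leading heavy variable gene took 24.5% in mouse 3 among KO-labelled mice and 36.6% in mouse 8 among WT-labelled mice. Igkv10-94 stood at 194 CPM in mouse 3, above the other KO-labelled mice.

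The genotype difference of Igkv8-24 differed between plasma and mature B cells, by 8.77 on the log2 scale (edgeR interaction test, adjusted p = 0.0456, 1 of 10785 genes). It rests on mouse 3, which held 144.5 CPM; over 12 alternatives that could be fitted the adjusted p ranged from 6.36e-07 to 1.00 and stayed under 0.05 in 8.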

How the results depend on the processing

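The cells with shared barcodes, left out as an alternative chosen after seeing the data, changed no call and no direction. The KO- and WT-labelled mice were compared without pairing, since the labels used here do not assign single mice to litters. Plasma and mature B cells were compared within the mouse. The comparison of IgM with IgA plasma cells was not run, with 3 IgM cells in all.

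For genotype in plasma cells, the count of called genes was 0 with DESeq2, with a 10 CPM filter and without immunoglobulin genes. The count was also 0 without cells holding markers of another lineage, with a term for mice 1 to 4, and in cells thinned to 3000 UMIs of all genes. It was 11 with no filter on low counts, all 11 of them immunoglobulin genes. Leaving out mice gave 0 to 4: without mouse 3 it was 4 (Agr2, Clca1 and Spink4, secreted products of goblet cells, lower, and Igkv10-94 higher), and without mouse 5 it was 1 (Ighg1). These genes other than Igkv10-94 were named after their values were seen. For the interaction the count was 0 with DESeq2, with a 10 CPM filter and without immunoglobulin genes, 18 with no filter, 4 without cells holding markers of another lineage, and 0 to 4 when a mouse was left out: 4 without mouse 2 or mouse 4, 2 without mouse 1 or mouse 3, and 0 without mouse 8.

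Plasma against mature B cells, the 1510 genes 2-fold apart in every mouse became 2549 with a pseudocount of 1 CPM, 944 without immunoglobulin UMIs in the totals and 312 at 4-fold, and 1534 to 1765 when a mouse was left out. Of 260 named genes 37 changed direction without immunoglobulin.

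Some differences in shares (KO minus WT, percentage points) turned sign, as listed here, and none had an adjusted p under 0.05. A single share could not have reached it alone. The smallest p of 4 against 4 by exact permutation, 0.0286, does not pass adjustment over 9 or over 3 values. The plasma share of all cells became -0.338 without mouse 7, -0.518 within mice 1 to 4 and -0.0034 on the log2 scale, and ranged from -0.338 to 1.69 over left-out mice. The share of B-lineage cells became 2.45 without mouse 8 (range -10.7 to 2.45). The division share became -3.15 in cells thinned to 3000 UMIs of all genes, immunoglobulins included (exact permutation, adjusted p = 0.617). This is another thinning than the one to 2000 UMIs described above. Without mouse 6 the division share was -0.283 (range -0.283 to 3.07). The immunoglobulin share ranged from -1.28 to 1.302 and the IgM share from -0.0674 to 0.0988 over left-out mice. Variable genes rest on 315 to 2564 heavy chain UMIs per mouse.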

Other observations

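Il10, which encodes an inhibitory cytokine, had 105 UMIs in all plasma cells and 5 in mature B cells. It was at 4.33, 0, 6.395, 8.62, 2.37, 2.10, 12.01 and 4.99 CPM in plasma cells of mice 1 to 8, where the values of mice 2 and 8 are at or under the limits that a count of 0 allows there (4.95 and 4.99 CPM). Among immediate early genes, Fos was higher in plasma than in mature B cells (965 ± 287 against 417 ± 176 CPM, SD, n = 8), while Junb (195 ± 40.7 against 1546 ± 602 CPM) and Ier2 (70.7 ± 28.3 against 402 ± 122 CPM) were lower in the same mice on both scales. Bst2, an interferon-induced membrane protein that the field also uses as a plasma cell marker, ranged from 344 CPM in mouse 1 to 1120 CPM in mouse 7.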
